A study of Mus musculus with 13 samples.

Results

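Axl, Ngfr, Egfr, Sox9, Tfap2a, Zeb1, Zeb2, Snai2 and Twist1 are 9 genes linked to melanoma dedifferentiation, invasion or the neural crest. They were found by their symbols in the GENCODE mouse annotation of GRCm38, and each matched 1 of the 54532 rows of the deposited count table. The study treated Yumm1.7 cells, a single mouse melanoma line, with the solvent DMSO, an inhibitor of the RNA-editing enzyme ADAR1 (ADAR1i-124), an inhibitor of DNA methylation (5-Aza-CdR), or both compounds. ADAR1i-124 was given at 10 μM for 12 h and 5-Aza-CdR at 1 μM for 72 h. Total RNA was sequenced from DMSO, ADAR1i-124 and 5-Aza-CdR cells in 1 library each. RNA of all 4 treatments was digested with RNase I and DNase and then precipitated with J2, an antibody against double-stranded RNA, or with Z22, an antibody against RNA in the Z-conformation, and 1 further library was precipitated with control IgG. For the combination, 5-Aza-CdR for 72 h came first and ADAR1i-124 was then given for a further 12 h, at the same doses. The sources do not say how the cells used for IgG had been treated. A library of total RNA after the combination was left out because its counts follow the other strand.

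The 12 libraries used held 8167960 to 34571822 counted reads, and the smallest number taken as detected, 3 counts, corresponds to 0.0868 to 0.367 CPM (counts over the library total, times 1000000). With 1 library per condition there is no replicate error and no test between conditions. Log2 changes were taken after adding 0.5 CPM. The 95% intervals beside them come from the Wilson interval of the gene's reads in the compared libraries, carry no added CPM and cover counting error only. Some libraries stand apart. Gm42418, an RNA that shares sequence with ribosomal RNA, made up 34.9% of counted reads in the DMSO library of Z22 and 10.6% to 18.9% of the other precipitated libraries. Ddx3y, a gene of the Y chromosome, stood at 3.35 CPM in total RNA of DMSO cells, at 48.9 CPM after ADAR1i-124 and 36.7 CPM after 5-Aza-CdR, at 26.4 CPM in the J2 library of DMSO cells against 1.35 to 5.01 in the other J2 libraries, and at 19.8 CPM in the Z22 library of DMSO cells against 0 to 8.32 in the other Z22 libraries. Kdm5d, also on the Y chromosome, had the same order of DMSO against treated libraries in each kind of RNA, and both genes were named after their values were seen. Col1a2, a collagen gene on the list of fibroblast markers, was at 60.2, 329.3 and 344.1 CPM in the same total RNA libraries, at 363.2 CPM in the J2 library and 1053 CPM in the Z22 library of DMSO cells, and at 4.90 to 113.9 CPM in the treated precipitated libraries. Ddx3y, Kdm5d and Col1a2 therefore differed between untreated and treated libraries in opposite directions in total and precipitated RNA. Other markers of the fibroblast list did not all do so: Col1a1, another collagen gene, was at 3.88, 3.58 and 44.0 CPM in total RNA and at 4.27 CPM in the J2 library of DMSO cells against 0.278, 3.76 and 6.97 CPM with ADAR1i-124, 5-Aza-CdR and the combination. In the Z22 libraries it was at 66.8 CPM with DMSO and 1.64 to 20.9 CPM in treated cells, on the same side as Col1a2. Pdgfra was at 5.23, 25.4 and 150.4 CPM in total RNA. It was at 43.2 CPM with J2 in DMSO cells against 4.17 to 26.4 CPM in treated cells, and with Z22 at 12.3 CPM against 7.22 to 15.4 CPM. The 7 fibroblast markers, including Col1a2, summed to 478.6 CPM with J2 in DMSO cells against 61.5 to 117.4 CPM in treated cells. With Z22 the sums were 1184 CPM against 77.7 to 180.4 CPM. The part of these transcripts in the results below was not tested.

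Melanoma cells can leave the pigmented melanocytic state, which is driven by Mitf and Sox10, for states in which pigment genes are silent and receptors such as Axl, Egfr and the neurotrophin receptor Ngfr are expressed. The transcription factors Zeb1, Zeb2, Snai2 and Twist1 drive epithelial-mesenchymal transition in carcinomas and have roles in the neural crest, the embryonic origin of melanocytes, where Sox9 and Tfap2a also act. In melanoma, Zeb2 and Snai2 are linked to the differentiated state and Zeb1 and Twist1 to the dedifferentiated one. DNA methylation at CpG dinucleotides of a promoter is associated with silencing, and 5-Aza-CdR lowers it in dividing cells. Methylation was not measured here.

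Because the study includes an inhibitor of DNA methylation, the promoters of 4 members are shown, with every CpG in capitals: the highest member, Axl, the lowest member, Ngfr, and the 2 members with a RefSeq promoter entry that were at least 2-fold higher in total RNA with 5-Aza-CdR, Egfr and Tfap2a. Each is the 250 bases before a RefSeq transcription start in GRCm38.p6, written 5′ to 3′ on the strand of the gene.
Axl, chr7:25788734-25788983, minus strand: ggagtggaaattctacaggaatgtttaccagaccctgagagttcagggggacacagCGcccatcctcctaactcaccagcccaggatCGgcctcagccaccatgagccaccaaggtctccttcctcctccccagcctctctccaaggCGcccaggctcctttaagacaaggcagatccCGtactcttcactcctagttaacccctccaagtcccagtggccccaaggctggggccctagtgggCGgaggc
Ngfr, chr11:95587699-95587948, minus strand: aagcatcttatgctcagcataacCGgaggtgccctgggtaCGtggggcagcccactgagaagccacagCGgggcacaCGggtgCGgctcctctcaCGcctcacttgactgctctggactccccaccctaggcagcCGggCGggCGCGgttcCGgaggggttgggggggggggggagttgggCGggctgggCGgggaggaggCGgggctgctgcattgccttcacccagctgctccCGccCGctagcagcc
Egfr, chr11:16751953-16752202, plus strand: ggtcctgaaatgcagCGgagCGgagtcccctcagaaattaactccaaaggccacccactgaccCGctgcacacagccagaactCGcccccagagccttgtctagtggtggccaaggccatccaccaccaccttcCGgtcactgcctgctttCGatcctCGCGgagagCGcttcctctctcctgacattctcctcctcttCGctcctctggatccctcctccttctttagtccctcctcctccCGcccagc
Tfap2a, chr13:40734921-40735170, minus strand, the upstream start of 2 listed: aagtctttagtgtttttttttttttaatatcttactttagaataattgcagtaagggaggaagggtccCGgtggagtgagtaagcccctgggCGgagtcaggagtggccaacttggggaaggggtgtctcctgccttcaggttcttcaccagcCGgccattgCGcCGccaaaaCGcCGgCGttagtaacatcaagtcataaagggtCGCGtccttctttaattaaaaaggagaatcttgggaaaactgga
The windows hold 5 CpG for Axl, 16 for Ngfr, 11 for Egfr and 10 for Tfap2a, against a median of 6 over the 32851 mouse promoters of the same table, of which 44.4%, 74.6%, 64.4% and 62.2% hold fewer. Of the 4 shown, Axl, chosen as the highest member, has the fewest CpG and Ngfr, chosen as the lowest, the most. Twist1 has 18 in its window and was expressed. Whether CpG number goes with level was not tested, and Ngfr had 5 counts in total RNA with 5-Aza-CdR. The table held entries for 6 members, 10 promoters in all, and the 4 windows of Zeb2 hold 6 to 14 CpG. Sox9, Snai2 and Zeb1 had no entry. The Tfap2a window shown lies inside the gene as annotated in GENCODE, which begins further upstream, at 40738376 on the minus strand. The E-box CAGGTG, read on both strands as CAGGTG or CACCTG and known as a binding motif of Zeb and Snail factors, is in none of the 10 windows and in 17.2% of all promoters.

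All members are protein-coding and are placed here in GENCODE M21 on GRCm38. The receptor genes are Axl (ENSMUSG00000002602, chromosome 7, 25757273 to 25788705, minus strand), Egfr (ENSMUSG00000020122, chromosome 11, 16752203 to 16918158, plus strand) and Ngfr (ENSMUSG00000000120, chromosome 11, 95568818 to 95587735, minus strand). Sox9 (ENSMUSG00000000567) lies on the plus strand of chromosome 11 from 112782224 to 112787760, and Tfap2a (ENSMUSG00000021359) on the minus strand of chromosome 13 from 40715302 to 40738376. Zeb1 (ENSMUSG00000024238) lies on the plus strand of chromosome 18 from 5591860 to 5775467, and Zeb2 (ENSMUSG00000026872) on the minus strand of chromosome 2 from 44983632 to 45117395. Snai2 (ENSMUSG00000022676) lies on the plus strand of chromosome 16 from 14705852 to 14709385, and Twist1 (ENSMUSG00000035799) on the plus strand of chromosome 12 from 33957671 to 33959829. Egfr, Tfap2a, Zeb1 and Zeb2 are overlapped by annotated genes on the other strand, each with at most 51 counts in any of the 12 libraries, and no annotated gene overlaps Axl, Ngfr, Sox9, Snai2 or Twist1.

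In total RNA of DMSO cells, Axl, a receptor tyrosine kinase of the TAM family, was by far the highest member per length. Its level was 206.5 RPKM (CPM per kilobase of the union of exons), above 99.7% of all genes of the table. Zeb2 followed at 17.1 RPKM with a 95% Poisson interval of 16.6 to 17.5, which does not meet the interval of Zeb1. Zeb1 at 11.2 RPKM (10.7 to 11.7), Tfap2a at 10.6 RPKM (9.87 to 11.3) and Twist1 at 10.4 RPKM (9.20 to 11.6) could not be put in order beyond counting error. Snai2 was at 8.06 RPKM, Sox9 at 4.68 RPKM and Egfr at 1.40 RPKM, and the intervals of these 3 genes do not meet each other's. Ngfr had 2 counts in this library, under the floor of 3. With the longest transcript as length in place of the union of exons, Zeb2 came to 37.3 RPKM, Zeb1 to 19.8 and Tfap2a to 14.9, all above Twist1 at 10.4, so the order among the middle genes depends on the length used. The members therefore spanned a range from one of the most abundant messages of these cells to a gene that was not reliably detected.

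**Figure D1:**
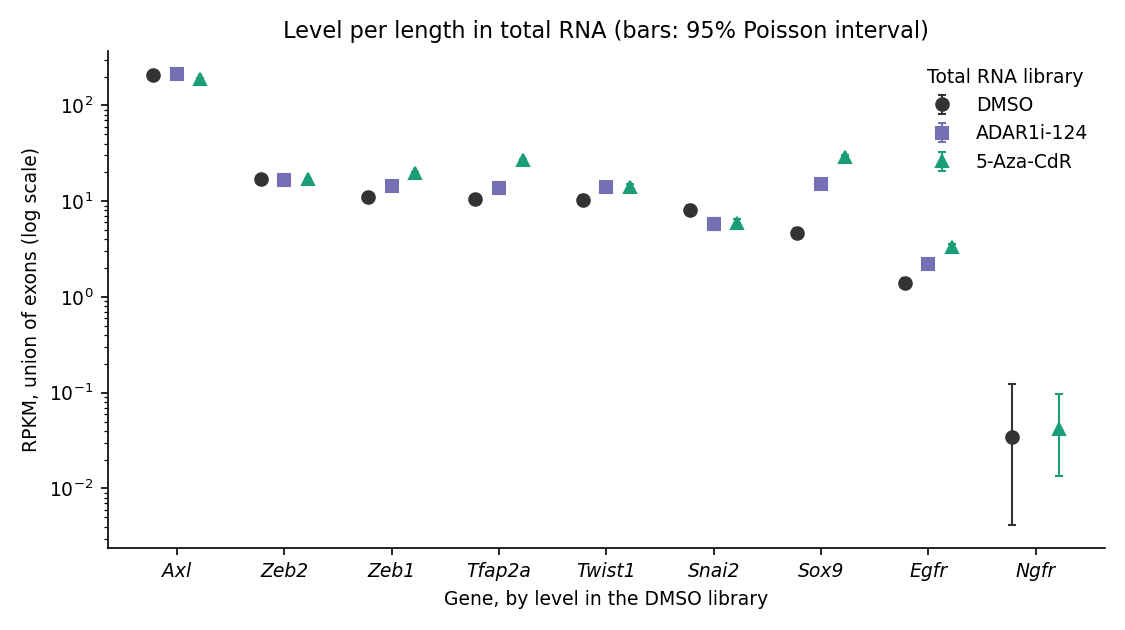
Levels per length (RPKM, log scale) of the 9 genes in total RNA of DMSO, ADAR1i-124 and 5-Aza-CdR cells, 1 library each, with 95% Poisson intervals. Axl lies between 188.9 and 213.1 RPKM, Sox9 lies at 4.68, 15.0 and 29.3 RPKM, and Ngfr, which has no point for ADAR1i-124 because its count was 0, lies below 0.05 RPKM.

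The order was not the same in the treated libraries. Sox9, the seventh gene with DMSO, was at 15.0 RPKM with ADAR1i-124, where counting error did not separate it from Zeb1 at 14.6 RPKM, and was the second with 5-Aza-CdR at 29.3 RPKM, ahead of Tfap2a at 26.7, Zeb1 at 19.7 and Zeb2 at 16.9 RPKM. On the longest transcript, Tfap2a, Zeb2 and Zeb1 stayed above Sox9 with 5-Aza-CdR. Axl was first and Ngfr last in all 12 libraries on either length.

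With ADAR1i-124, 6 of the 8 members above 1 CPM were higher in total RNA than with DMSO, and Sox9 was the member with the largest difference. Sox9, an HMG-box factor that acts in the neural crest and in cartilage, had 329 counts with DMSO, 19.3 CPM, and 1095 counts with ADAR1i-124, 62.2 CPM. This is a log2 change of 1.66 (1.51 to 1.86), short of the 4-fold line. Egfr, the receptor of epidermal growth factor, was at 15.8 and 25.1 CPM, a log2 change of 0.65 (0.45 to 0.89). Smaller differences upward, each beyond counting error, were those of Twist1 at 16.9 and 23.1 CPM, Tfap2a at 51.8 and 67.7 CPM and Zeb1 at 114.8 and 149.6 CPM. Axl at 1039 and 1073 CPM and Zeb2 at 340.5 and 335.9 CPM differed by at most 0.05 on the log2 scale, and the direction of Zeb2 turns with the scaling. Snai2 was the only member whose interval lay below 0, at 16.3 and 11.7 CPM with a log2 change of -0.46 (-0.74 to -0.22). Of all genes tested, 26.8% had a lower change than Snai2 and 97.1% a lower change than Sox9. How many of all genes lay beyond counting error in this comparison was not counted.

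The median log2 change of the 8 members was 0.38, and that of all 13693 genes tested was -0.09. None of the 8 was past the 4-fold line in either direction, where 1.88% of all genes were higher and 2.05% lower. Sox9 was past the 2-fold line, as were 7.71% of all genes, and no member was at least 2-fold lower, against 8.7% of all genes. Ngfr had 2 and 0 counts and was not tested.

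With 5-Aza-CdR, Sox9 rose in total RNA and was the 1 member past the 4-fold line. It had 4182 counts, 121.0 CPM, against 19.3 CPM with DMSO, a log2 change of 2.61 (2.48 to 2.81). Tfap2a, the AP-2α factor that induces neural crest and acts with Mitf in melanocytes, was 2.53-fold higher at 130.8 against 51.8 CPM, with a log2 change of 1.33 (1.23 to 1.44). Egfr was 2.4-fold higher at 37.9 against 15.8 CPM, with a log2 change of 1.23 (1.07 to 1.45). These 3 genes were the members beyond the 2-fold line, and each was also higher with ADAR1i-124 alone than with DMSO, by less than with 5-Aza-CdR. The comparisons share the DMSO library.

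Zeb1, a zinc-finger repressor of epithelial genes, was at 202.3 CPM against 114.8 CPM with DMSO, a log2 change of 0.81 (0.75 to 0.89), and its relative Zeb2 was at 337.8 against 340.5 CPM, a log2 change of -0.01 (-0.06 to 0.03). The counting intervals of these 2 relatives do not meet, and that of Zeb2 holds 0. Twist1, a basic helix-loop-helix factor, stood at 23.1 CPM, the level it had with ADAR1i-124, against 16.9 CPM with DMSO. Axl at 950.9 CPM and Snai2 at 12.1 CPM were lower than with DMSO, with log2 changes of -0.13 and -0.41. Ngfr had 5 counts among 34571822, 0.145 CPM.

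The median change of the 8 members was 0.63, against 0.06 over 14391 genes. The line of 4-fold higher was passed by 1 member and by 5.98% of all genes, and that of 2-fold higher by 3 members and by 17.0% of all genes. No member was 4-fold lower, where 1.76% of all genes were, or 2-fold lower, where 8.96% were. In bulk libraries, a change in the number of cells of a type and a change in RNA per cell cannot be told apart. The 7 fibroblast markers summed to 238.9, 388.8 and 824.9 CPM in total RNA of DMSO, ADAR1i-124 and 5-Aza-CdR cells, with Thy1 at 0 in all libraries and Dcn at 129.4 CPM with 5-Aza-CdR against 0.411 CPM with DMSO. The 6 leukocyte markers summed to 0.235, 0.170 and 4.08 CPM. Pdgfrb, another fibroblast marker, was at 169.2, 30.6 and 155.9 CPM. The 4 endothelial markers summed to 4.23, 18.5 and 83.3 CPM, of which Cdh5 made up 3.70, 17.8 and 81.1 CPM, in the same order of libraries as Sox9, Egfr and Tfap2a. The 4 Schwann cell markers summed to 59.5, 24.2 and 34.2 CPM, of which Pmp22 made up 57.2, 21.5 and 27.2 CPM. The part of these transcripts in the members' changes was not tested.

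**Figure D2:**
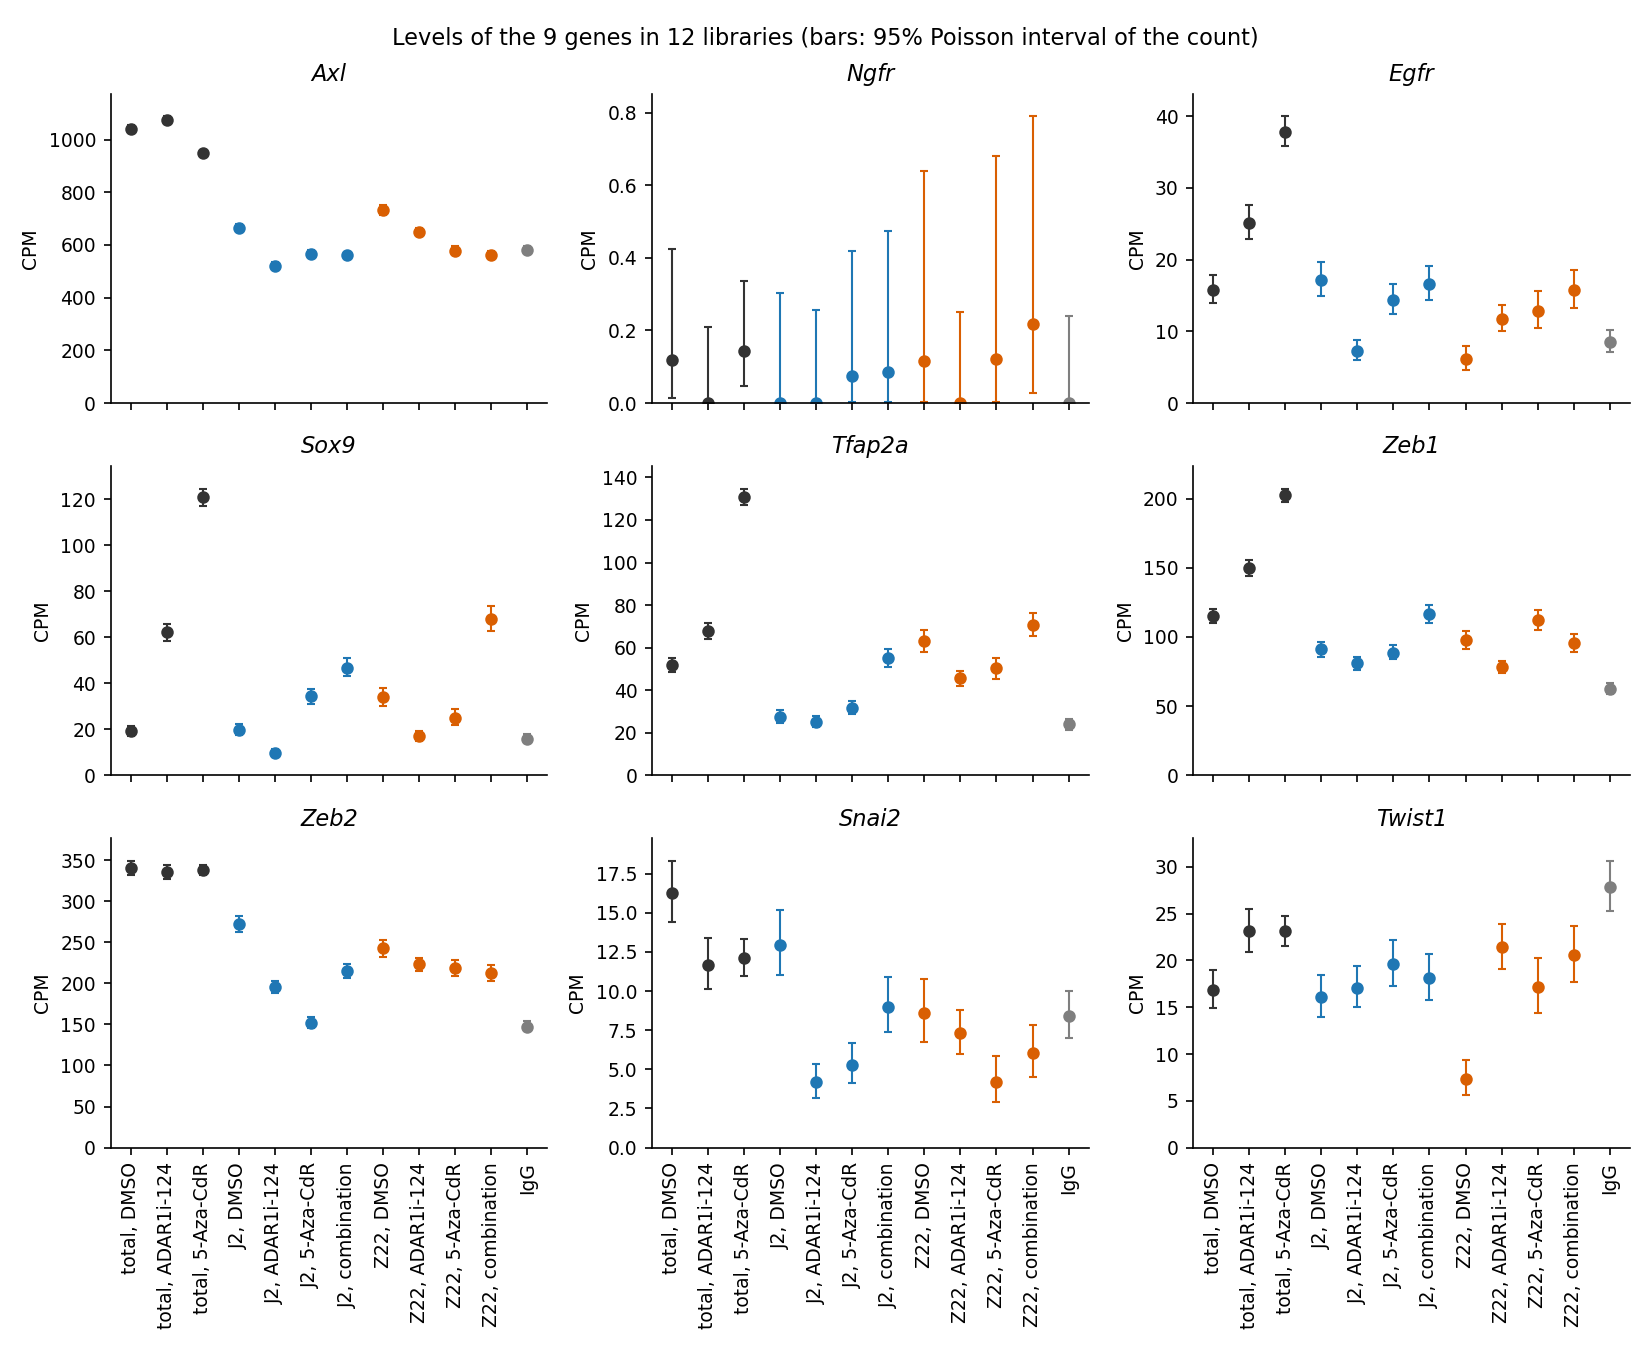
Levels (CPM) of the 9 genes in the 12 libraries, 1 point per library with the 95% Poisson interval of its count; black is total RNA, blue J2, orange Z22 and grey IgG, and each vertical axis starts at 0. In total RNA Sox9, Tfap2a, Egfr and Zeb1 stand in the order DMSO, ADAR1i-124, 5-Aza-CdR from low to high, Zeb2 lies between 335.9 and 340.5 CPM, and Twist1 is lowest in the Z22 library of DMSO cells.

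In RNA precipitated with J2, most members were lower with ADAR1i-124 and not higher as in total RNA, while Snai2 was lower in both. With ADAR1i-124, 7 of 8 members were lower than with DMSO and 6 of them beyond counting error, and the median change was -0.41, against 0.00 over 13522 genes. Of all genes, 33.2% had intervals below 0 and 34.2% above 0, which no member had. Snai2, the zinc-finger factor also called Slug, was lowest relative to DMSO at 4.17 against 13.0 CPM, a log2 change of -1.53 (-2.07 to -1.21) from 60 and 158 counts. Egfr was at 7.29 against 17.2 CPM, a log2 change of -1.18 (-1.57 to -0.90), and Sox9 at 9.66 against 19.8 CPM, a log2 change of -0.998 (-1.34 to -0.73). Egfr and Sox9, both higher with the inhibitor in total RNA, were thus both lower with it in the J2 libraries. Zeb2 at 195.5 against 272.2 CPM and Axl at 521.9 against 666.2 CPM were also lower, and Tfap2a and Twist1 had intervals that hold 0. No member passed the 4-fold line, which 0.821% of all genes passed upward and 2.71% downward.

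With 5-Aza-CdR, Sox9 in the J2 libraries was at 34.3 against 19.8 CPM with DMSO, a log2 change of 0.78 (0.57 to 1.02), the highest of the members as in total RNA. Tfap2a, at 31.8 against 27.4 CPM, had a change of 0.21 (0.01 to 0.42), and Egfr, at 14.4 against 17.2 CPM, had an interval that holds 0. Snai2 was at 5.26 CPM, a log2 change of -1.22 (-1.71 to -0.90), and Zeb2, at 151.9 against 272.2 CPM, had a change of -0.84 (-0.92 to -0.76). The members therefore spread to both sides of 0, with a median of -0.13 against 0.06 over all genes. No member was past the 4-fold line, against 3.02% of all genes higher and 0.971% lower.

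With the combination, Sox9 was at 46.8 CPM and Tfap2a at 55.1 CPM in the J2 libraries, the highest level of each among the 4 treatments. Against DMSO the log2 changes were 1.22 (1.03 to 1.46) for Sox9 and 0.99 (0.82 to 1.20) for Tfap2a, whereas Snai2 had -0.50 (-0.88 to -0.17) and the members' median was 0.06, against 0.11 over all genes. The 4-fold line was passed by no member, by 2.83% of all genes upward and by 0.438% downward. Against 5-Aza-CdR alone, 5 members were higher beyond counting error, as were 23.9% of all genes, and none was lower beyond it, against 16.6%. Their median was 0.42, against 0.05 over all genes. The 5 were higher as follows: Tfap2a by 0.78 (0.62 to 0.97), Snai2 by 0.72 (0.34 to 1.21), Zeb2 by 0.50, Sox9 by 0.44 and Zeb1 by 0.39 on the log2 scale. All of them lie short of the 4-fold line, which 0.211% of all genes passed upward and 0.0282% downward.

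All comparisons of Z22 libraries with DMSO rest on the library in which Gm42418 made up 34.9% of counted reads. Relative to it, the median of all genes was higher by 0.81 for ADAR1i-124, by 1.06 for 5-Aza-CdR and by 0.82 for the combination on the log2 scale. The members' medians lay below this shift, at -0.20, -0.24 and 0.07, although Twist1 and Egfr were above it or within 0.04 of it in each comparison and Sox9 was above it with the combination. Relative to the median of all genes, the members that were lower therefore numbered 6 of 8 for ADAR1i-124, 7 for 5-Aza-CdR and 5 for the combination. The share of all genes at least 4-fold higher was 13.2%, 20% and 14.2% in these comparisons, and the share at least 4-fold lower was 0.945%, 0.926% and 1.02%, while no member passed either line. Relative to the median of all genes, Snai2 with 5-Aza-CdR had a change of -2.02, past the lower line, as were 4.56% of all genes on that scale.

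Sox9 in the Z22 libraries stood at 33.9 CPM in DMSO cells, 17.1 CPM after ADAR1i-124, 25.0 CPM after 5-Aza-CdR and 68.1 CPM after the combination. It was thus lower with either compound and highest with both, and the change with the combination against 5-Aza-CdR alone was 1.43 (1.22 to 1.68) from 623 and 204 counts. Relative to the median of all genes, the changes against DMSO were -1.78 for ADAR1i-124, -1.49 for 5-Aza-CdR and 0.18 for the combination. Tfap2a stood at 62.9, 45.5, 50.2 and 70.7 CPM in the same order, which follows the order of Sox9. Its change with the combination against DMSO was 0.17 and turns to -0.65 relative to all genes.

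Twist1 and Egfr were lowest in the Z22 library of DMSO cells. Twist1 was at 7.33 CPM there and at 17.1 to 21.4 CPM in the treated Z22 libraries, and Egfr at 6.07 CPM and at 11.7 to 15.7 CPM. Their changes relative to all genes were between 0.11 and 0.67 for Twist1 and between -0.04 and 0.49 for Egfr, so most of their difference was shared with the median gene. Axl lay within 562.6 to 733.1 CPM and Zeb2 within 212.4 to 242.9 CPM over the 4 Z22 libraries, with DMSO highest in both. Snai2 had 34 to 107 counts. Between the combination and 5-Aza-CdR alone, where the DMSO library plays no part, the members' median was 0.27 and that of all genes -0.18. No member passed the 4-fold line there, which 0.369% of all genes passed upward and 0.961% downward.

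**Figure D3:**
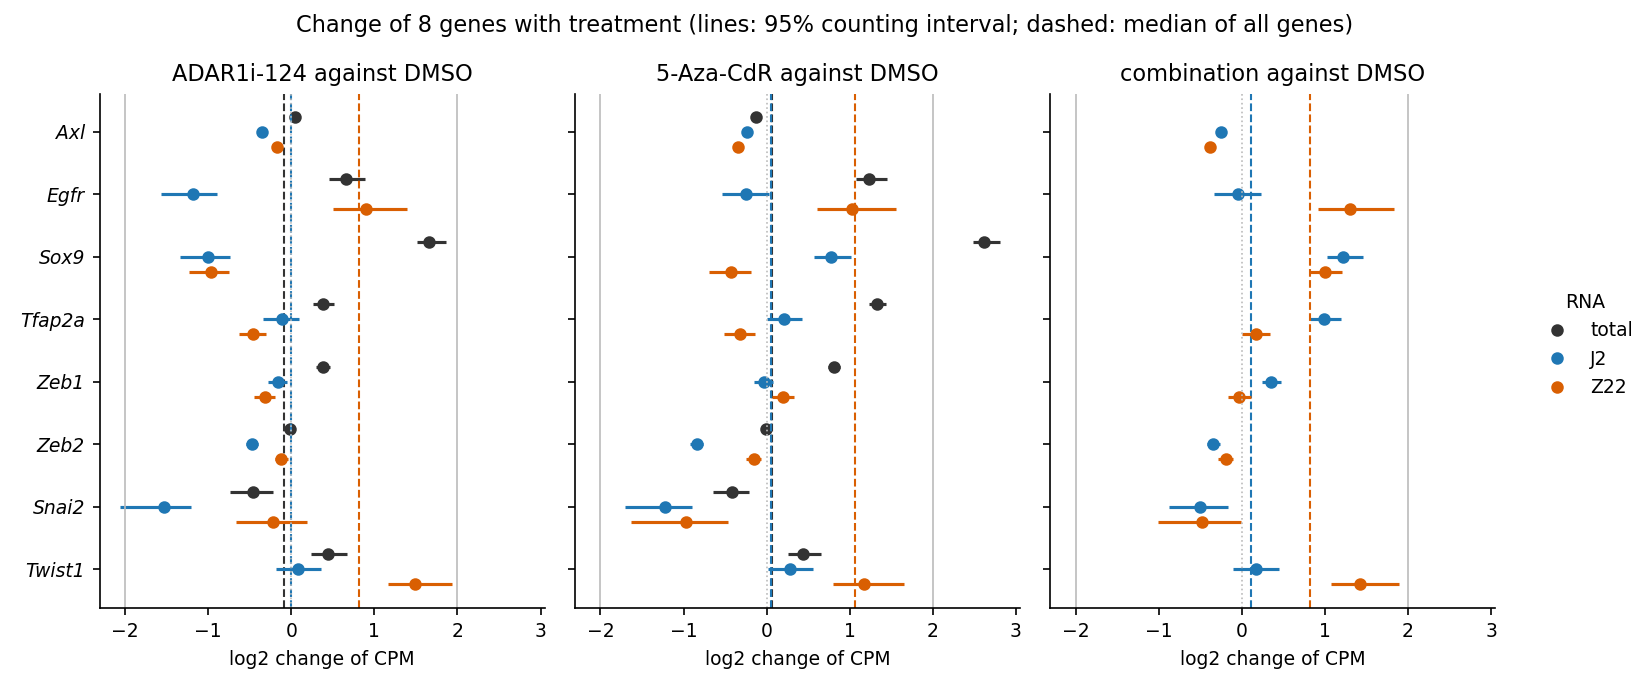
Log2 change of CPM against DMSO of 8 genes in total (black), J2 (blue) and Z22 (orange) RNA; lines are 95% counting intervals, dashed lines the median of all genes tested and grey lines the 4-fold limits. Sox9 at 2.61 with 5-Aza-CdR in total RNA is the 1 point past a limit, and in Z22 most points lie left of the orange dashed line at 0.81, 1.06 and 0.82.

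Levels in the IgG library show what these genes gave without an antibody to double-stranded RNA. Axl was at 582.7 CPM with IgG, within the 521.9 to 733.1 CPM of the J2 and Z22 libraries, and its differences lay between -0.16 and 0.33 on the log2 scale. The highest of these, in the Z22 library of DMSO cells, was 1.16 relative to the median of all genes. Zeb1, at 62.5 CPM with IgG, was higher in all 8 J2 and Z22 libraries by 0.32 to 0.89, and every interval lay above 0. Twist1, at 27.9 CPM with IgG, was lower in all 8 libraries, with differences of -1.86 to -0.37. Zeb2 at 147.5 CPM with IgG was exceeded in 7 libraries beyond counting error, and in the J2 library of 5-Aza-CdR cells the interval of its difference holds 0.

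Sox9 and Tfap2a went furthest above IgG, where they were at 15.9 and 23.9 CPM. Sox9 exceeded IgG by 1.53 (1.35 to 1.78) with J2 and by 2.07 (1.89 to 2.32) with Z22 in combination-treated cells, the latter past 4-fold, as were 4.78% of all genes in that comparison. Relative to the median of all genes, the difference of Tfap2a in the Z22 library of DMSO cells was 2.21, and 93.0% of all genes had a lower difference there. With ADAR1i-124 alone Sox9 was below IgG in the J2 library, at -0.69 (-1.02 to -0.42), and its interval held 0 in the Z22 library. Tfap2a exceeded IgG in each Z22 library, by 0.92 to 1.55. Egfr, at 8.55 CPM with IgG, was above it by 0.72 to 0.96 in 3 J2 libraries and by 0.44 to 0.84 in the 3 treated Z22 libraries, whereas with DMSO in Z22 and with ADAR1i-124 in J2 the differences were -0.46 (-0.95 to -0.04) and -0.22 (-0.60 to 0.14). The first of these turns to 0.37 relative to the median of all genes. Snai2, at 8.42 CPM with IgG, lay above it beyond counting error only in the J2 library of DMSO cells, by 0.60 (0.29 to 0.96). Over the 8 members, the median difference from IgG ran from -0.19 to 0.72 with J2 and from 0.24 to 0.57 with Z22, where the medians of all genes ran from -0.01 to 0.13 and from -0.83 to 0.18. Because 1 IgG library stands for all treatments and its cells' treatment is not given, each treated library is set against the same reference.

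**Figure D4:**
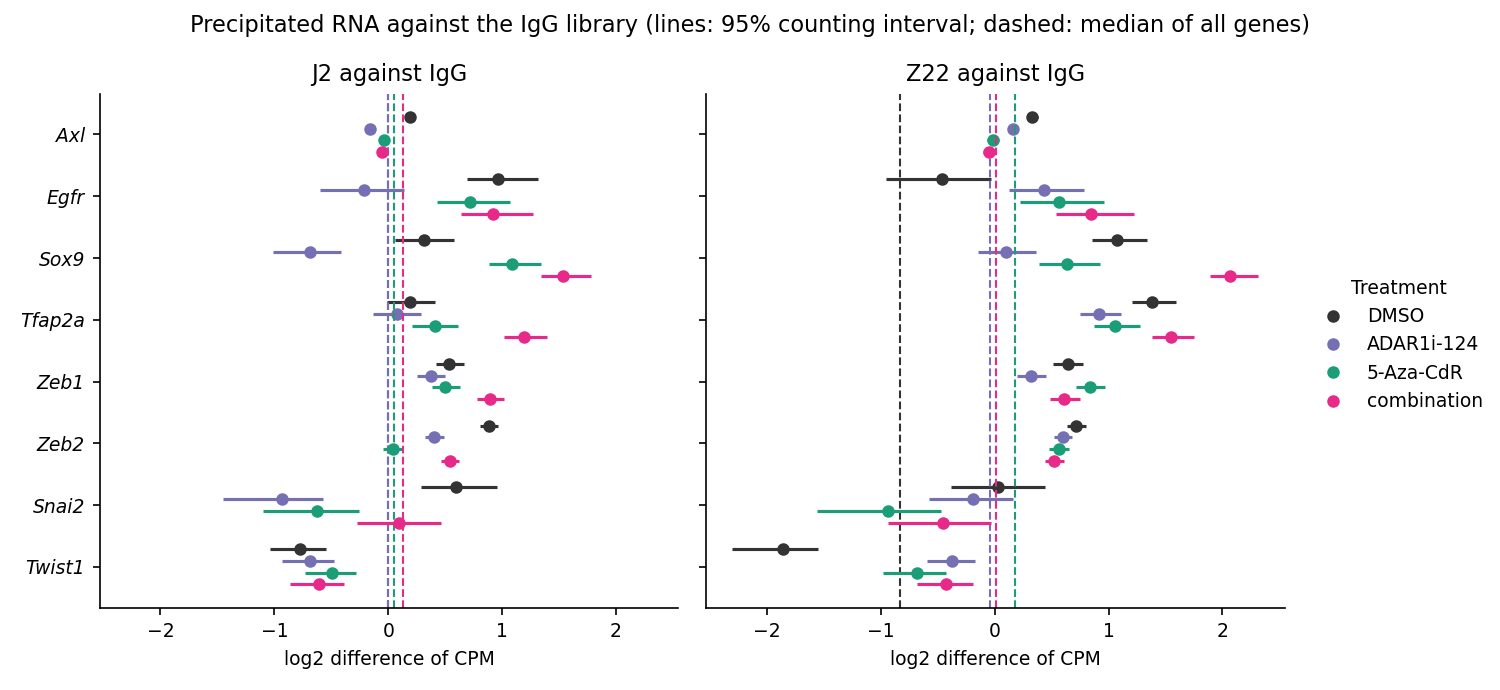
Log2 difference of CPM between each J2 or Z22 library and the IgG library for 8 genes, coloured by treatment, with 95% counting intervals and the median of all genes dashed. Twist1 lies left of 0 in all 8 libraries, Zeb1 lies right of 0 in all 8, and Sox9 reaches 2.07 with Z22 in combination-treated cells.

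Set directly against each other at the same treatment, Z22 and J2 libraries differed in the same direction at every treatment for Tfap2a, which was higher with Z22 by 1.18, 0.84, 0.65 and 0.36 on the log2 scale in the order DMSO, ADAR1i-124, 5-Aza-CdR, combination, each beyond counting error. Relative to the median of all genes these differences were 1.99, 0.84, 0.52 and 0.46, so Tfap2a was higher with Z22 on either scale. Sox9 was higher with Z22 in 3 treatments, by 0.54 to 0.79, and had a difference of -0.45 with 5-Aza-CdR. For Egfr the difference was -1.43 (-1.93 to -1.07) in DMSO cells, or -0.62 relative to the median of all genes, and 0.65 on either scale in ADAR1i-124 cells. The members' medians were -0.03, 0.48, -0.06 and -0.01, against -0.80, 0.00, 0.13 and -0.10 over all genes.

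Of the genes listed as ligands and related receptors of Axl, Ngfr and Egfr, 14 of 22 were tested in total RNA in each comparison. With 5-Aza-CdR, 6 were at least 2-fold higher, where 17.0% of all genes were, and none 2-fold lower, where 8.96% were, with a median of 0.84 against 0.06 over all genes. Ligands of Egfr led: Btc (betacellulin) rose from 2.88 to 58.3 CPM, a log2 change of 4.12 (3.93 to 4.75), and Areg (amphiregulin) from 2.53 to 31.8 CPM, a change of 3.41 (3.21 to 4.09). Ereg (epiregulin), at 127.0 and 408.5 CPM, had a change of 1.68, so receptor and these ligands were higher in the same library. Btc at 30.4 against 5.34 CPM and Areg at 27.6 against 4.43 CPM were also higher with 5-Aza-CdR in the J2 libraries.

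With ADAR1i-124, Hbegf, another Egfr ligand, was at 37.9 and 77.5 CPM, and Lrig1, an inhibitor of Egfr family receptors, at 337.5 and 190.5 CPM. Areg was at 2.53 and 4.77 CPM. In all, 1 of 14 was at least 2-fold higher, a share near the 7.71% of all genes, and none 2-fold lower, where 8.7% of all genes were, with a median of 0.10 against -0.09. Gas6, the ligand of Axl, had 6, 0 and 50 counts and was at 0.353, 0 and 1.45 CPM in total RNA of DMSO, ADAR1i-124 and 5-Aza-CdR cells. Pros1, which encodes protein S, a ligand of the related receptors Tyro3 and Mertk, was at 33.6, 19.98 and 101.5 CPM, and Erbb4 was at 0 in all 12 libraries.

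Other genes of the dedifferentiated state had larger median changes in total RNA than the members. With ADAR1i-124, 10 of 16 tested lay past the 2-fold line upward and 6 past the 4-fold line, against 7.71% and 1.88% of all genes. None was 2-fold lower, against 8.7%, and the median was 1.48. Loxl2 and Nt5e, drawn in the plot of these genes, were below the level filter in this comparison and are not in these counts. Tgfbi, among the 10, was at 0.705 and 3.29 CPM and passed that filter only through the ADAR1i-124 library. Plaur, the urokinase receptor, rose from 43.4 to 392.2 CPM, Wnt5a, a ligand of noncanonical Wnt signalling, from 2.76 to 25.4 CPM, and Fosl1, which encodes the AP-1 subunit FRA1, from 53.1 to 349.0 CPM, a log2 change of 2.71 (2.62 to 2.82).

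With 5-Aza-CdR, 10 of 18 lay past the 2-fold line upward, 4 of them past the 4-fold line, while 2 were over 4-fold lower, with a median of 1.46. Of all genes 17.0%, 5.98% and 1.76% passed these lines. Nt5e, at 0 and 4.45 CPM, and Tgfbi are among the 4. Both reached the level filter only through the 5-Aza-CdR library, so their entry into these counts and the median depends on their rise. Tgfbi, a secreted matrix protein induced by TGFβ, rose from 12 to 5984 counts, 0.705 to 173.1 CPM, and Wnt5a rose from 2.76 to 64.3 CPM. With ADAR1i-124 Ccn2, a target of YAP and TEAD, was higher than with DMSO, at 467.4 against 106.0 CPM. With 5-Aza-CdR it fell to 7.84 CPM, a log2 change of -3.67 (-3.94 to -3.57). The list thus moved in both directions with 5-Aza-CdR. In the J2 libraries 11 of 17 tested were above their DMSO level with ADAR1i-124 and 8 of 16 with 5-Aza-CdR, with medians of 0.24 and -0.30 against 0.00 and 0.06 over all genes. No gene of the list was 4-fold higher there, and 3 and 4 were 4-fold lower, against 2.71% and 0.971% of all genes. Plaur, at 100.2 CPM with DMSO and at 184.1 and 253.0 CPM, lay on the same side as in total RNA. Tgfbi, Fn1 and Wnt5a lay on the other side. Tgfbi was at 10.8 CPM with J2 in DMSO cells against 0.973 and 1.13 CPM, and Fn1, the fibronectin gene, at 1502 against 369.8 and 232.7 CPM. Wnt5a was at 15.4 CPM with J2 in DMSO cells against 1.74 and 2.41 CPM with ADAR1i-124 and 5-Aza-CdR, and at 10.1 CPM with Z22 in DMSO cells against 6.07 and 1.10 CPM. Ddx3y and Col1a2 also stood opposite to total RNA in these libraries.

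**Figure D5:**
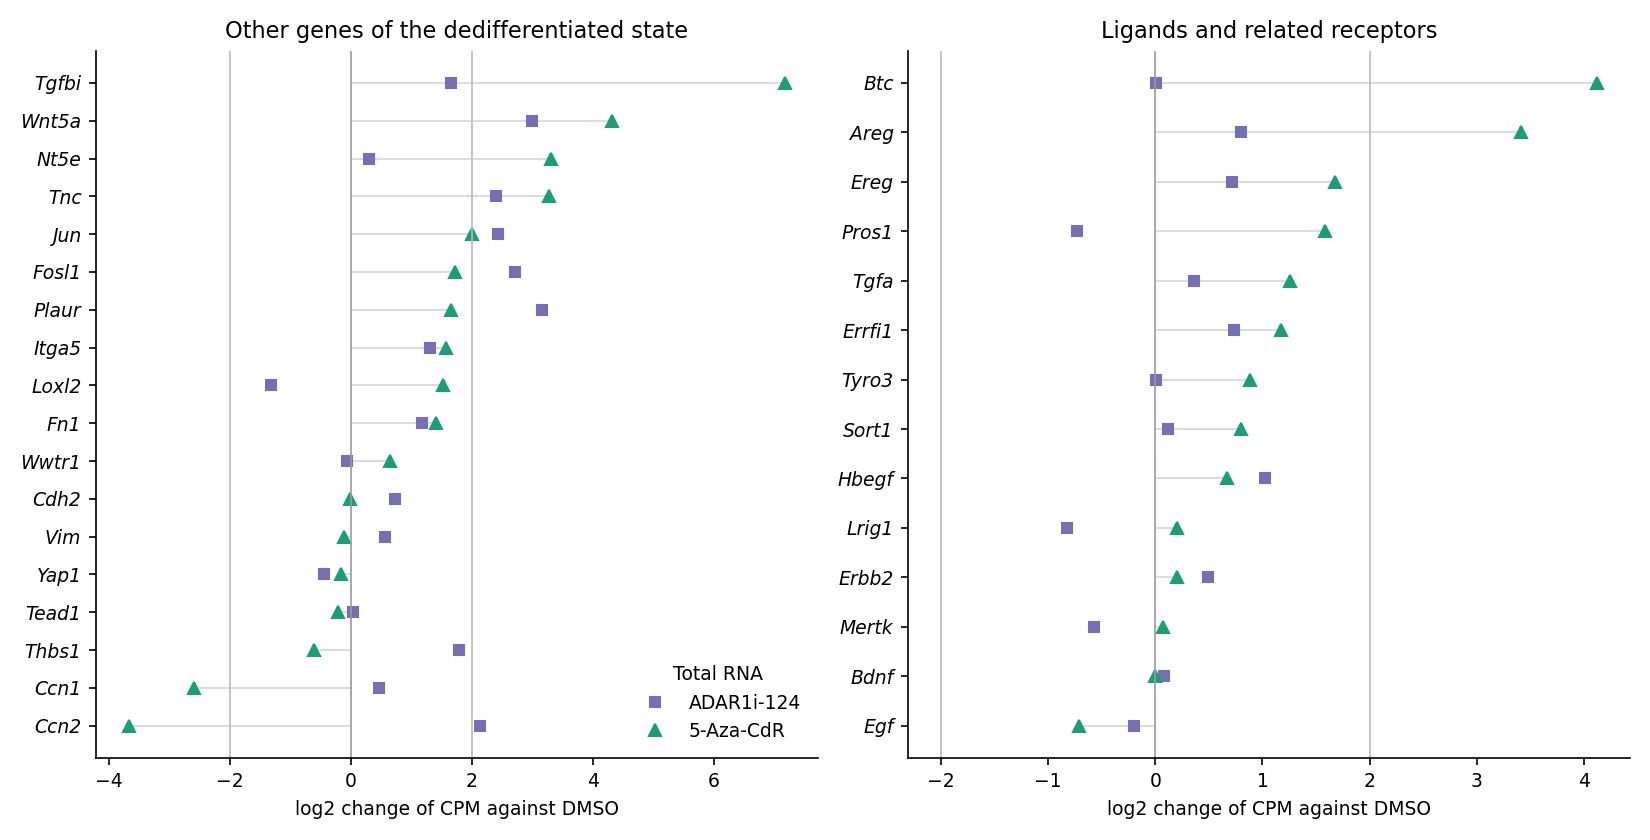
Log2 change of CPM against DMSO in total RNA for those genes of both lists whose mean over the 3 total RNA libraries was 1 CPM or more; squares are ADAR1i-124, triangles 5-Aza-CdR, and grey lines mark 0 and the 4-fold limits. Tgfbi at 7.17 and Ccn2 at -3.67 mark the ends of the left panel with 5-Aza-CdR, and Btc at 4.12 and Areg at 3.41 the upper end of the right panel.

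Of 12 melanocyte differentiation genes, Mitf was the 1 that averaged 1 CPM or more in total RNA, at 22.2, 20.3 and 33.1 CPM with DMSO, ADAR1i-124 and 5-Aza-CdR. Tyr, Tyrp1 and Gpr143 had no count in any of the 12 libraries, and Sox10 had at most 0.115 CPM. The other genes of this list stayed at or below 1.35 CPM in every library, the level of Mc1r with Z22 after 5-Aza-CdR. Of the 8 markers set for melanocytic cells, only Mitf was above 1 CPM in any library. Of 13 other neural crest genes, 7 were tested in total RNA. With ADAR1i-124 their median was -0.21 against -0.09 over all genes, and 1 was 2-fold higher and 1 lower, against 7.71% and 8.7% of all genes. With 5-Aza-CdR the median was 0.16 against 0.06, and 2 were 2-fold higher, 1 of them 4-fold, against 17.0% and 5.98%. Snai1, the relative of Snai2, was at 8.46 CPM with DMSO, 26.1 with ADAR1i-124 and 42.1 with 5-Aza-CdR, a rise past 4-fold in the last, where Snai2 was lower. Tfap2b, the relative of Tfap2a, was at 110.3, 57.9 and 164.9 CPM, with a change of -0.92 with ADAR1i-124 where that of Tfap2a was 0.38. Twist2, the relative of Twist1, was likewise lower with ADAR1i-124, at 13.0 and 5.17 CPM. With ADAR1i-124, each of these 3 paralogs thus lay on the other side of its DMSO level from the member. Msx1, a homeobox factor of the neural crest, was at 4.06 and 9.60 CPM with DMSO and 5-Aza-CdR.

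The 9 partners and corepressors of the transcription factors were all tested, and 1 of them passed the 2-fold line in total RNA, downward with ADAR1i-124, where 8.7% of all genes did: Tcf4, an E protein that pairs with Twist1, was at 410.1 CPM with DMSO and 172.6 with ADAR1i-124, a log2 change of -1.25. Tcf3, another E protein, was at 42.6 CPM with DMSO and at 79.1 and 78.5 CPM with ADAR1i-124 and 5-Aza-CdR. Kctd1 and Kctd15, inhibitors of AP-2 factors, were both higher with 5-Aza-CdR, by 0.69 and 0.48 on the log2 scale. The list medians were -0.19 with ADAR1i-124 and 0.14 with 5-Aza-CdR.

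The epithelial genes that Zeb, Snail and Twist factors repress were mostly undetected. Of 14, 1 was tested with ADAR1i-124 and 3 with 5-Aza-CdR in total RNA, and Cdh1, the E-cadherin gene, had at most 0.367 CPM in any library. Grhl2, an activator of epithelial genes, rose from 5 to 177 counts with 5-Aza-CdR, 0.294 to 5.12 CPM, and Krt8, a keratin of simple epithelia, from 0 to 72 counts, at least 11.8-fold higher against a floor of 3 counts in the DMSO library. Ocln, a tight junction gene, was at 1.88, 0.170 and 0.810 CPM in total RNA of DMSO, ADAR1i-124 and 5-Aza-CdR cells. In the J2 and Z22 libraries of 5-Aza-CdR cells Krt8 was at 13.5 and 9.31 CPM and its partner Krt18, named after its values were seen, at 16.8 and 12.5 CPM, against at most 0.0821 CPM with DMSO. These keratins were thus detected after 5-Aza-CdR in each kind of RNA.

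Genes whose levels ran most like those of a member over the 12 libraries were sought by Pearson's r of log2 CPM among 8889 genes whose mean was 10 CPM or more. The points share libraries and depth, and no p is given. Arhgef19 was closest to Sox9 (r = 0.96), Zdhhc8 to Tfap2a (0.96), Dcun1d3 to Egfr (0.98), Zfp36l1 to Zeb1 (0.94), Diaph2 to Zeb2 (0.94), Alg3 to Axl (0.95), Tm2d2 to Twist1 (0.95) and Tti2 to Snai2 (0.87). Among the members themselves, Axl and Zeb2 (r = 0.86), Sox9 and Tfap2a (0.85) and Zeb1 and Tfap2a (0.84) were the pairs with the highest r.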

How the data were processed

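Total, J2, Z22 and IgG RNA of Yumm1.7 cells was sequenced by the study on a NovaSeq X as paired reads, after ribosomal RNA depletion. The authors mapped the reads with STAR in snakePipes to GRCm38 (mm10) and deposited raw counts per gene, not normalized; the counting tool and its strand setting are not given in the sources used here. Identifiers were matched without version to GENCODE M21, which named 54495 genes and left 37 unnamed. Of 13 libraries, 12 were used. Their depth was 17015425 to 34571822 counts in total RNA, 11767409 to 14396132 with J2, 8167960 to 14663357 with Z22 and 15324595 with IgG.

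CPM are counts over the library total, times 1000000. Log2 changes used a pseudocount of 0.5 CPM, genes whose mean in the libraries compared was 1 CPM or more, and a 4-fold line (2-fold as well in total RNA). Reads carry no molecular identifiers, so intervals and floors cover counting error only. No test was run, since each condition has 1 library. Promoters came from a RefSeq table of GRCm38.p6. The named genes are all members, at most the 3 genes of each other list with the largest change in each total RNA comparison, genes that overlap a member, and the genes most like each member; genes named outside this rule were chosen after their values were seen. Some genes of these lists are not reported here and enter no count of a list. Members and lists were chosen with earlier results of these data known. Alternatives covered scaling (edgeR 4.0.16 TMM, DESeq2 1.42.0 size factors, totals without 20 genes), pseudocounts of 0.1 and 2, filters, the line, protein-coding genes, centring on all genes, transcript length and the libraries used for likeness. R 4.3.3 and Python 3.11.15 with numpy 2.4.6, pandas 2.3.3, scipy 1.17.1 and matplotlib 3.10.9 were used, and the calculations were tested on simulated data. The marker lists for keratinocytes, endothelial and Schwann cells summed to 0.458 to 2.41, 3.52 to 83.3 and 11.4 to 59.5 CPM over the libraries, and the melanocytic list to 9.89 to 33.8 CPM.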

Additional observations from a re-analysis of the deposited data

Results flagged for a closer look

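Some changes of members had opposite directions in different kinds of RNA of the same treatment and differed by at least 1 on the log2 scale, each beyond counting error in CPM and with the same opposition in sign relative to the median of all genes. These differences were not tested, since each rests on 1 library per condition. With ADAR1i-124, the log2 change of Sox9 in total RNA exceeded that in J2 by 2.66 and that in Z22 by 2.63. Egfr exceeded its change in J2 by 1.83 in total RNA, and its change in J2 was below that in Z22, with a difference of -2.08. With 5-Aza-CdR, the change of Sox9 exceeded that in Z22 by 3.05 in total RNA and by 1.21 in J2. Tfap2a exceeded its change in Z22 by 1.65 in total RNA. Relative to the median of all genes, the differences that involve Z22 were, with ADAR1i-124, 3.53 for Sox9 and -1.27 for Egfr, whose change in Z22 is then 0.09, and, with 5-Aza-CdR, 4.05 and 2.21 for Sox9 and 2.65 for Tfap2a. Ddx3y and Col1a2 had opposite directions in the same pairs of total and precipitated libraries, and their part was not tested.

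The library of total RNA after the combination, left out of the comparisons, gave counts on the other strand of members. It held 61 counts on the 9 members, of which Zeb2 and Tfap2a had 3 or more, and 1433 on the 10 genes that overlap them on the other strand. Gm47061 had 721 counts and Gm26688 had 99 opposite Tfap2a, where the other 12 libraries had at most 15 and 51. Zeb2os had 395 counts opposite Zeb2, against at most 48 elsewhere, and Egfros had 71 opposite Egfr, against at most 3. Opposite Zeb1, Gm16147 had 96 and Gm10125 had 51 counts, against 0 and at most 47.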

How the results depend on the processing

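Over 10 alternatives, 402 medians and counts of members stayed within the members' range or within 1.5 times the count, 18 did not, and no called change of a member turned sign. Among the comparisons between treatments, the main setting called only Sox9 with 5-Aza-CdR in total RNA, so the last point covers little else. Directions of uncalled changes that turned are given below. With a 2-fold line, members higher became 1 with ADAR1i-124 and 3 with 5-Aza-CdR in total RNA, 1 with the combination in J2, and 1, 2 and 2 with ADAR1i-124, 5-Aza-CdR and the combination in Z22, and 1 for the combination against 5-Aza-CdR in Z22; members lower became 2 with ADAR1i-124 and 1 with 5-Aza-CdR in J2. Of all genes, 8.21% were 2-fold higher with the combination in J2, 42.9%, 52.1% and 43.4% in the Z22 comparisons with DMSO and 2.28% in the last, and 10.8% and 6.0% were 2-fold lower in J2. In Z22 the members' median against DMSO moved with the scaling: with ADAR1i-124 to -1.04 (DESeq2) and -1.01 (centred on all genes), with 5-Aza-CdR to -1.20 (TMM), -1.31 (DESeq2) and -1.30 (centred), where 1 member, Snai2, was over 4-fold lower when centred, as were 4.56% of all genes, and with the combination to -0.65 (TMM), -0.79 (DESeq2) and -0.75 (centred). Shifts that stayed within the members' range are not among these. With ADAR1i-124 the median was -0.20 in the main setting, -0.86 with TMM and -0.63 with totals without 20 genes. With totals without 20 genes it was -0.74 for 5-Aza-CdR and -0.30 for the combination, against -0.24 and 0.07. These settings rescale the Z22 library of DMSO cells.

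Directions turned with scaling or centring for Zeb2 in both total RNA comparisons, for Zeb1 and Egfr with 5-Aza-CdR and Tfap2a with the combination in Z22 (Egfr when centred on all genes, at -0.04), and for Axl, Zeb1 and Zeb2 between the combination and 5-Aza-CdR in Z22. Of the 24 genes most like a member over 12 libraries, 3 were also among the 24 over the 8 J2 and Z22 libraries. With 1 library per condition, there was no replicate to leave out. No replicate block was fitted, as the labels carry no replicate numbers. The Z22 and J2 libraries were compared treatment by treatment, and no test over the 4 treatments as pairs was run. Ngfr was at or near the floor of 3 counts in each library, so no change of it was detectable at this depth.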
